A study of Mus musculus with 6 samples.

Results

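The aryl hydrocarbon receptor genes and exporters of foreign compounds described here were taken by symbol. They are Ahr, Arnt, Ahrr, Tiparp, Cyp1a1, Cyp1b1, Abcb1a, Abcc1 and Abcc4, and each of the 9 had a row among the 55549 rows of every deposited table. The samples were mouse embryos collected early in the 2-cell stage, as 3 control libraries and 3 libraries of embryos exposed to ethylparaben (EtP). EtP, the ethyl ester of 4-hydroxybenzoic acid and a common preservative, was added to the culture medium at 40 uM from 4 h after fertilization, and most exposed embryos stopped developing at this stage according to the series. The labels give no strain, no vehicle for the controls, no number of embryos per library and no hour of collection. Nor do they say whether the libraries of one group stem from separate cultures, so p-values reflect library-to-library spread that may be purely technical.

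The aryl hydrocarbon receptor (AhR) is a transcription factor that waits in the cytoplasm in a complex with HSP90 and its co-chaperone p23. Planar aromatic ligands send it to the nucleus, where it pairs with ARNT and binds a short response element with the core GCGTG. Its classical targets include the cytochrome P450 enzymes CYP1A1 and CYP1B1 and both of its own inhibitors, the repressor AHRR and the ADP-ribosyltransferase TiPARP. ABCB1 (P-glycoprotein), ABCC1 and ABCC4 are ATP-driven pumps that carry drugs, conjugates and other compounds out of cells.

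The promoters of the target genes are shown because they carry the element by which AhR and ARNT are known to act, while their transcripts had very different levels in these embryos. GCGTG was searched on both strands in the 250 bases before each RefSeq start on GRCm38.p6. The same letters also form the core of the hypoxia response element, so a match does not single out AhR. Of the 9 genes 7 had a window in the table, and 6 of these held at least 1 match: Tiparp, Arnt, Cyp1a1, Ahrr, Cyp1b1 and the upstream one of the windows of Abcc4. Among all genes with a window 30.9% held a match. Bases are given 5′ to 3′ on the gene's strand, outside annotated exons of the gene, with each match in capitals (GCGTG, or CACGC where the match is on the other strand).
Tiparp: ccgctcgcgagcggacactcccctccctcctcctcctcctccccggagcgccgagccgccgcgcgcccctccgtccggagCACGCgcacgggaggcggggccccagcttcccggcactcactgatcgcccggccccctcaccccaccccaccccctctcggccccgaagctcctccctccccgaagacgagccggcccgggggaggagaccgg
Cyp1a1: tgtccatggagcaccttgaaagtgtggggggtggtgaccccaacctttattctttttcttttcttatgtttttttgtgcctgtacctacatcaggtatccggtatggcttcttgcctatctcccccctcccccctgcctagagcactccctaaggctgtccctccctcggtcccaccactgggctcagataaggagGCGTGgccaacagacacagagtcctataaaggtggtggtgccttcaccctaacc
Ahrr: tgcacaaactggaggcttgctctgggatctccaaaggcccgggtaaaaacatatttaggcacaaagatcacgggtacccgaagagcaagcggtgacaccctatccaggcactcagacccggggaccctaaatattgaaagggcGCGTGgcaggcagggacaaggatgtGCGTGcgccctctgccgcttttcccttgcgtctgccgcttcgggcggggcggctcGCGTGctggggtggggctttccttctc
Cyp1b1: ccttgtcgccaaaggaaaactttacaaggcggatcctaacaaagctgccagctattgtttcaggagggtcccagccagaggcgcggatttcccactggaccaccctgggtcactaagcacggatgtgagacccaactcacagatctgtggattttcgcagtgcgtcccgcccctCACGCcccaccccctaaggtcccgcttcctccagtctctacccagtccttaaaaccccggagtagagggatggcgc
The first, of Tiparp, is chr3:65528197-65528409 on the plus strand, with 1 match that begins 170 bases before the RefSeq start; it stops where the first exon begins in GENCODE M21. The second, of Cyp1a1, is chr9:57697363-57697612 on the plus strand, with 1 match 54 bases before the start. The third, of Ahrr, is chr13:74292332-74292581 on the minus strand, with matches that begin 107, 82 and 27 bases before the start. The fourth, of Cyp1b1, is chr17:79715062-79715311 on the minus strand, with 1 match 76 bases before the start. A match is a description of the letters and not evidence of binding.

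Levels are given as deposited TPM, a measure scaled for transcript length that can be set beside each other between genes. Tiparp was by far the most abundant of the 9 in both groups, at 530 ± 194 TPM in control and 625 ± 116 TPM in EtP (mean ± SD, n = 3 each). Only 0.701% to 1.68% of genes with a TPM above 0 were more abundant than Tiparp in any library. Arnt followed at 55.3 ± 26.3 TPM in control and 28.6 ± 9.94 TPM in EtP. Next came Abcc1 at 8.86 to 13.66 TPM in control and 9.85 ± 0.45 TPM in EtP, then Abcc4 at 4.46 ± 1.43 and 3.92 ± 0.832 TPM, and Ahr at 2.73 ± 2.02 and 1.44 ± 0.408 TPM. Below 1 TPM in both groups were Abcb1a, Ahrr, Cyp1b1 and Cyp1a1. Neighbours in this order whose libraries overlapped were Abcc4 and Ahr, Abcb1a and Ahrr, and Ahrr and Cyp1b1 in control. In EtP the mean of Cyp1b1 was above that of Ahrr, and the overlapping neighbours were Cyp1b1 and Ahrr, and Ahrr and Cyp1a1, which were both at 0 in EtP replicate 2.

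**Figure D1:**
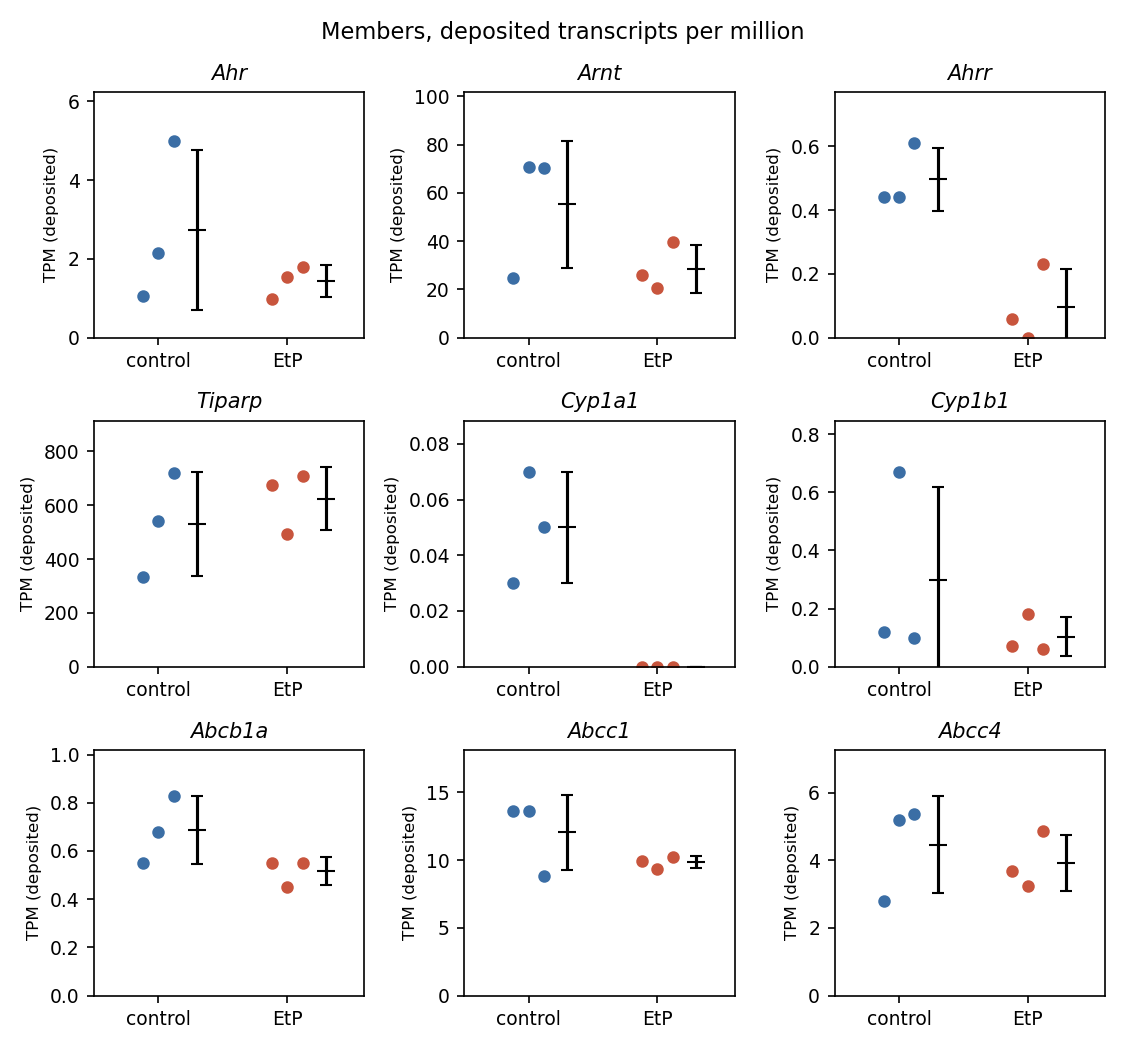
Deposited TPM of each of the 9 genes (vertical axes, linear, from 0) in the 3 control and 3 EtP libraries (points, replicates 1 to 3 from left to right), with mean and SD beside them; bars that would pass below 0 end at 0. Tiparp reached 719 TPM in control and 707 TPM in EtP, with overlapping groups, and Ahrr lay lower in every EtP library.

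Groups were compared on expected counts, the authors' estimates of fragments per gene. These counts were scaled by TMM, a method that adjusts for RNA composition by assuming that most genes do not differ, and divided by scaled library size (CPM). Of the 9 genes 7 passed the filter on low counts and 1 was called, Tiparp, which was higher in EtP (edgeR quasi-likelihood test, adjusted p below 0.05 over all 14373 genes tested). Across all genes tested 12.5% were called higher and 18.1% lower. The median log2 difference of the 7 was 0.23, and that of all genes tested was -0.19. Library totals were 11173295 to 14737152 estimated counts, and TMM factors ran from 1.198 to 1.385 for control and from 0.7378 to 0.833 for EtP. Small changes can be missed by this test. In simulated counts, 100 genes were changed 2-fold and 100 were changed 4-fold among 14418 tested, and 24% and 90% of them were called. The changed genes were drawn only from those above a minimum mean count. Far fewer genes changed there than were called here, and no shift in RNA composition was simulated. These shares are therefore not the power for the 9 genes, least of all for those with few counts.

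Ahr, on chromosome 12 from 35497974 to 35535038 of mm10, encodes the receptor itself. Its control libraries were at 3.24, 6.93 and 11.6 CPM and its EtP libraries at 5.50, 8.40 and 7.70 CPM. Every EtP value lay between the lowest and the highest control value. The log2 difference was -0.01 ± 0.42 (SE; edgeR adjusted p = 0.988). Without control replicate 3, the highest of the controls, it was 0.55 (edgeR adjusted p = 0.284). On the TPM scale the EtP mean was 0.527 times the control mean, with overlapping groups (exact two-sided permutation p = 0.4, adjusted p = 0.6 over the 9 genes). With 3 libraries against 3 such a test cannot go below 0.1. In RNA of whole embryos, fewer cells with a transcript and less transcript per cell cannot be told apart.

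Arnt, on chromosome 3 from 95434388 to 95497240, encodes the partner that AhR shares with the hypoxia-inducible factors. It was at 41.0, 97.0 and 99.96 CPM in control and at 69.9, 54.1 and 91.2 CPM after EtP. Again the EtP values fell inside the control range, and control replicate 1 was the lowest library for both Ahr and Arnt. The log2 difference of Arnt was -0.14 ± 0.34 (SE; edgeR adjusted p = 0.775). Its TPM in EtP was 0.517 times that in control, also with overlap (exact two-sided permutation p = 0.3, adjusted p = 0.6). Receptor and partner had unequal levels in TPM, with every library of Arnt far above every library of Ahr.

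Tiparp, on chromosome 3 from 65528410 to 65555518, encodes an ADP-ribosyltransferase that modifies AhR and limits its activity. Its control libraries were at 990.0, 1298 and 1384 CPM and its EtP libraries at 2774, 2013 and 2472 CPM. All EtP values lay above all control values. Tiparp rose from 1224 ± 207 to 2419.7 ± 383 CPM (SD, n = 3), a log2 difference of 0.98 ± 0.22 (SE; edgeR adjusted p = 0.00778), which is 1.98-fold. The call held when any 1 library was left out, with log2 differences of 0.92 to 1.14 and adjusted p-values of 0.00219 to 0.0426.

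That rise belongs to scalings that adjust for RNA composition, and not to TMM alone. DESeq2, with its own scaling of this kind, also called 1 of the 9 genes higher and 0 lower. With library size alone the log2 difference of Tiparp was 0.24 (edgeR adjusted p = 0.373), and on log2(TPM + 1) it was 0.29 (limma adjusted p = 0.401). Its deposited TPM was 332, 540 and 719 in control and 674, 492 and 707 in EtP, so the groups overlapped (exact two-sided permutation p = 0.7, adjusted p = 0.7). No other of the 9 genes was called with library size alone, where 3.79% of all genes were called higher and 53.0% lower and the median of all genes moved by -0.73. Relative to most genes Tiparp was thus higher in EtP, and a difference in its share of the whole library was not shown.

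Transcripts stored in the egg moved in the same direction. Of 10 egg and early embryo markers 8 were higher and 0 lower in EtP by edgeR, where 12.5% of all genes tested were higher and 18.1% lower. Their median log2 difference was 1.10, and that of all genes tested was -0.19. Of the 10 markers 9 had an unadjusted p below 0.05, and DESeq2 called 9 higher and 0 lower. Without 1 library 4 to 9 were called (the lowest without control replicate 2 or EtP replicate 1, and 5 without EtP replicate 2). With library size alone 4 were higher and 0 lower, where 3.79% of all genes tested were higher and 53.0% lower. The summed level of these markers was 5731 to 8103 CPM in control and 19779 to 22004 CPM after EtP. Bmp15, an oocyte growth factor, rose from 3002 ± 254 to 10369 ± 467 CPM, a log2 difference of 1.79 ± 0.20 (SE; edgeR adjusted p = 0.000127). Oosp1, an oocyte-secreted protein, rose by 1.01 ± 0.29 (edgeR adjusted p = 0.0229), a call lost without either of EtP replicates 1 and 2 or without control replicate 2 (adjusted p = 0.0701 to 0.0931). With library size alone Oosp1 was at 0.30 (edgeR adjusted p = 0.303) and on log2(TPM + 1) at 0.36 (limma adjusted p = 0.115). Their part in the Tiparp result was not tested.

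**Figure D2:**
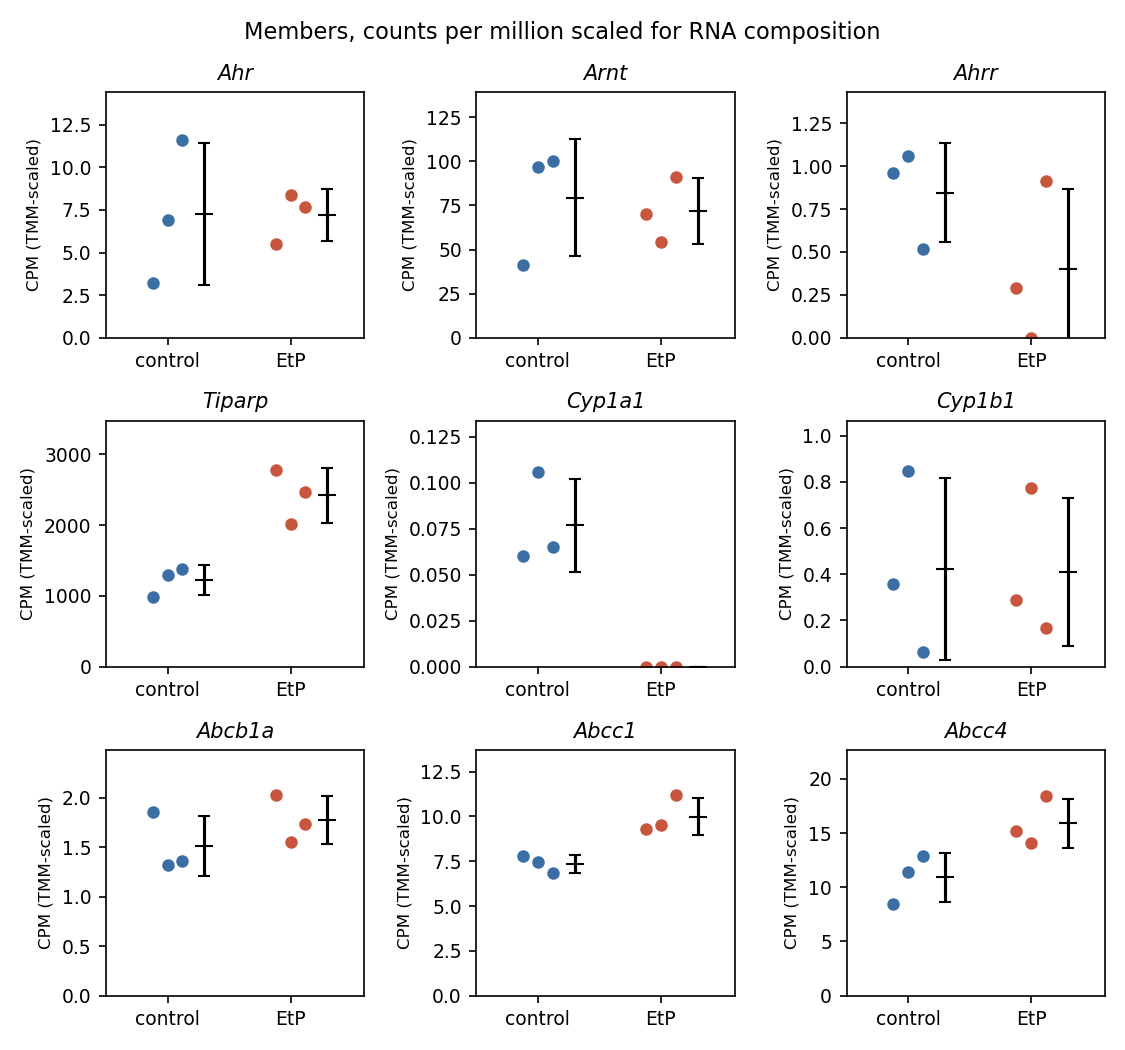
TMM-scaled CPM of each of the 9 genes (vertical axes, linear, from 0) in the 3 control and 3 EtP libraries (points, replicates 1 to 3 from left to right), with mean and SD beside them; bars that would pass below 0 end at 0. On this scale the groups of Tiparp, Abcc1 and Abcc4 did not overlap, while Ahr and Arnt did.

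Ahrr, on chromosome 13 from 74211118 to 74292331, encodes a repressor that competes with AhR for ARNT. It had 16, 20 and 8 counts in the control libraries and 3, 0 and 11 in the EtP libraries. That is 0.96, 1.06 and 0.519 CPM in control and 0.29, 0.00 and 0.911 CPM after EtP, with overlap. It passed the filter through the control group, in which 3 libraries reached 0.714 CPM before TMM scaling against 1 of the EtP libraries, so the gene was selected where it was high. The log2 difference was -0.98 ± 0.74 (SE; edgeR adjusted p = 0.34). Summed over each group, 44 counts in control and 14 in EtP give a ratio of 0.515 (95% exact binomial interval 0.261 to 0.958), an interval that covers counting error only and not the spread between libraries.

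On deposited TPM Ahrr looked different. Its control libraries were at 0.44, 0.44 and 0.61 TPM and its EtP libraries at 0.06, 0.00 and 0.23 TPM, without overlap (exact two-sided permutation p = 0.1, adjusted p = 0.45). In limma on log2(TPM + 1) it was called lower, with a difference of -0.45 (adjusted p = 0.0191). On that scale 43.1% of all genes were called lower and 4.86% higher, and 50.4% of tested genes had every EtP library below every control library. The median of all genes on this scale was -0.60. The length that the TPM divides by also varied for Ahrr, from 1797 to 4143 bases in control and 1957 to 4864 bases in EtP.

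Cyp1a1, on chromosome 9 from 57687928 to 57703824, encodes the monooxygenase most often used as a readout of AhR activity. It had 1, 2 and 1 counts in the control libraries and none in the EtP libraries. These 4 control counts are 0.0785 CPM over the group, and a count of 0 in EtP allows up to 0.0953 CPM (3 counts over the group). A difference in Cyp1a1 was therefore not detectable at this depth, and the gene did not enter the test. Intervals and the limit of 0.0953 CPM cover counting error only, since PCR copies were not marked.

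Cyp1b1, on chromosome 17 from 79701537 to 79715061, encodes a related enzyme that acts on oestrogens and aromatic hydrocarbons. It had 6, 16 and 1 counts in control and 3, 7 and 2 in EtP, which is 0.0649 to 0.846 and 0.166 to 0.773 CPM. The libraries of both groups overlapped over most of their range. Over the groups the ratio of EtP to control was 0.845 (95% exact binomial interval 0.383 to 1.77), and the gene did not pass the filter.

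Of 12 other genes known as AhR targets, each with at least 1 count, 5 passed the filter and edgeR called 0; none had an unadjusted p below 0.05, and DESeq2 and limma-voom also called 0. With library size alone, and on log2(TPM + 1), 1 was called lower, and without control replicate 1, 2 were called higher. The actin-severing gene Scin was at 21.4 ± 3.72 CPM in control and 27.1 ± 1.87 CPM after EtP, and Xdh, which encodes xanthine dehydrogenase, at 15.3 ± 6.1 and 18.3 ± 1.03 CPM (SD, n = 3). Without control replicate 1 Xdh was higher by 0.71 (edgeR adjusted p = 0.0204), where its log2 difference over all libraries was 0.25 ± 0.29 (SE; adjusted p = 0.544). Nqo1, a quinone reductase shared with the NRF2 pathway, was at 14.9, 10.9 and 7.92 CPM in control and 14.9, 15.1 and 15.7 CPM after EtP (log2 difference 0.44 ± 0.27 SE; edgeR adjusted p = 0.249). Cyp1a2, the liver relative of Cyp1a1, was at most at 0.423 CPM in any library.

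Among the exporters, Abcc1 lies on chromosome 16 from 14361558 to 14475737 and encodes a pump for glutathione conjugates. It was at 7.80, 7.46 and 6.82 CPM in control and at 9.27, 9.50 and 11.2 CPM after EtP. The groups did not overlap. Its log2 difference of 0.44 ± 0.24 did not pass the test (SE; edgeR adjusted p = 0.197).

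Abcc4, on chromosome 14 from 118482692 to 118706219, encodes a pump for organic anions and cyclic nucleotides. Its values were 8.46, 11.4 and 12.9 CPM in control and 15.2, 14.1 and 18.4 CPM after EtP. Here too every EtP library was above every control library, with a log2 difference of 0.54 ± 0.26 that did not pass (SE; edgeR adjusted p = 0.131). Of the 7 tested genes 3 had EtP libraries all above the controls, Tiparp, Abcc1 and Abcc4, where this held for 19.0% of all genes tested.

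Abcb1a, on chromosome 5 from 8660077 to 8748575, encodes a form of P-glycoprotein. It was at 1.86, 1.32 and 1.36 CPM in control and 2.03, 1.55 and 1.74 CPM after EtP, with overlap and a log2 difference of 0.23 ± 0.37 (SE; edgeR adjusted p = 0.675). Its expected counts were not whole in any of the 6 libraries. Reads may be split with its related neighbour Abcb1b or with annotated genes that overlap it, so its value is uncertain. Abcb1b itself was at 23.4 to 26.8 CPM in control and 26.9 to 30.3 CPM after EtP (log2 difference 0.17 ± 0.21 SE; edgeR adjusted p = 0.572). Tiparp was the other gene of the 9 whose counts were fractional in all 6 libraries.

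The sign of the exporters depended on scaling. With library size alone Abcb1a, Abcc1 and Abcc4 had log2 differences of -0.49, -0.28 and -0.19, and on log2(TPM + 1) of -0.15, -0.24 and -0.12, none of them called. In deposited TPM the EtP means were 0.752, 0.818 and 0.880 times the control means, with overlapping groups for each (exact two-sided permutation p = 0.3, 0.4 and 0.7). Each of these exporters lay above the median of all genes under either count scaling, as that median was -0.19 with TMM and -0.92 with library size alone.

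**Figure D3:**
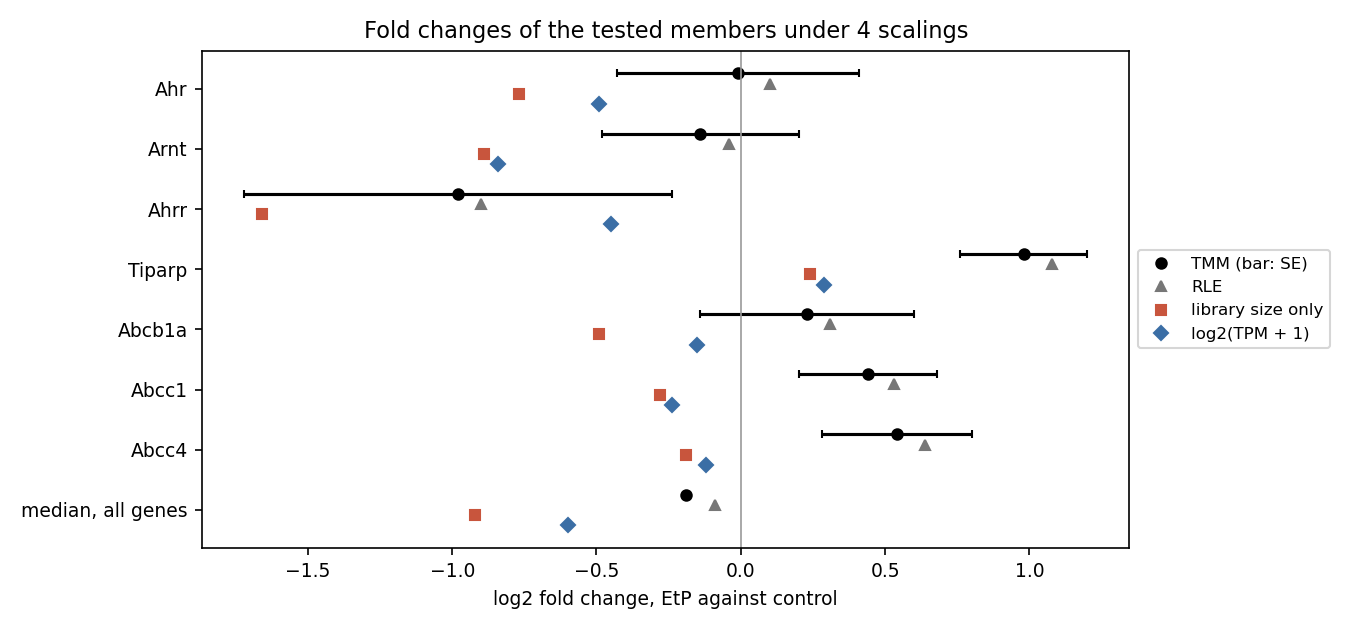
Log2 fold change, EtP against control (horizontal axis), of the 7 tested genes and of the median gene under TMM (black, bar is the SE), RLE (grey), library size alone (red) and log2(TPM + 1) (blue). The points of Tiparp run from 0.24 to 1.08, and those of Abcc1 and Abcc4 lie on both sides of 0.

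The deposited tables also give a transcript length per gene and library, which for genes with several transcripts differs between libraries; how it was weighted is not given in the sources used here. For Tiparp it was 3838 to 4179 bases, close to the 4191 bases of its longest protein-coding transcript in GENCODE M21. Abcc1 stood apart: its deposited length was 898, 1042 and 1617 bases in control and 1030, 1129 and 1397 bases in EtP, against 6792 bases for its longest protein-coding transcript. That is 13.2% to 23.8% of the full length, in both groups. The annotation holds 12 transcripts of Abcc1, among them protein-coding fragments of 390, 603 and 614 bases. Abcc1 therefore exceeded Abcc4 in TPM in every library although it had fewer counts in every library, and its rank by TPM rests on that short length.

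Arnt had 2357 to 2866 bases in control and 2757 to 2778 bases in EtP, below the 4325 bases of the longest of its 6 protein-coding transcripts; others have 2603 and 2699 bases. Ahr was at its full 5548 bases in control replicate 2 and in EtP replicates 1 and 2, and at 4251 to 5059 bases in the other libraries. Cyp1a1 was given 2659 bases in each EtP library, where it had no count. Cyp1b1 ranged from 1436 to 4363 bases in control, and it rested on at most 16 counts in a library.

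**Figure D4:**
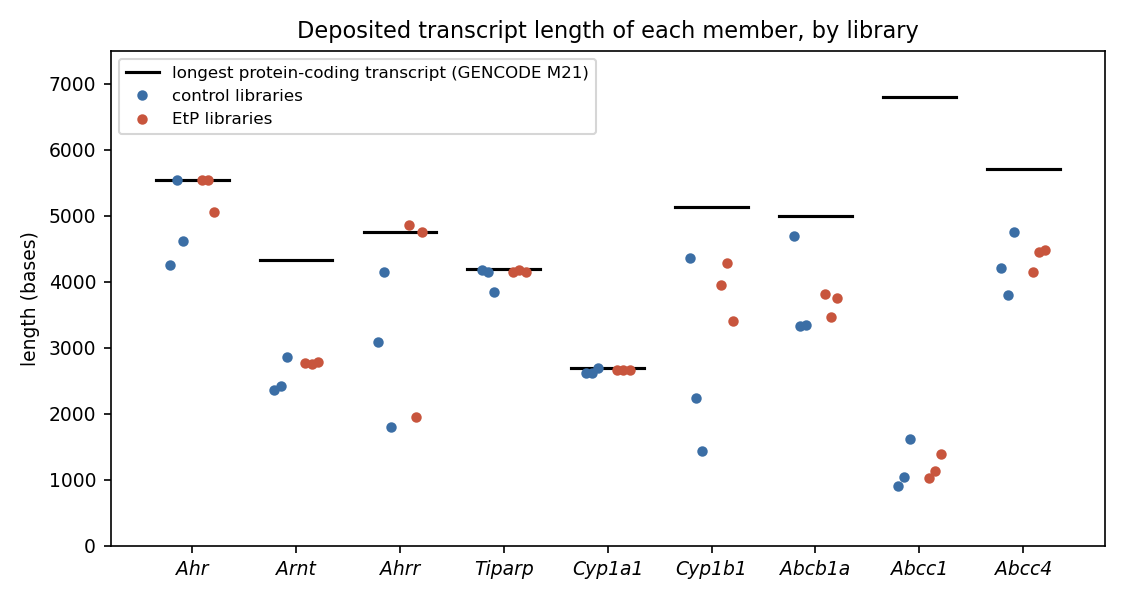
Deposited transcript length in bases (vertical axis) of each of the 9 genes in control (blue) and EtP (red) libraries, beside the longest protein-coding transcript of GENCODE M21 (black line). Abcc1 lies at 898 to 1617 bases in all 6 libraries, far under its line at 6792 bases.

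Genes of the complex that holds AhR in the cytoplasm were higher in EtP in part. Of 5 tested, 3 were higher and 0 lower by edgeR, where 12.5% of all genes tested were higher and 18.1% lower. An unadjusted p below 0.05, counted without regard to direction, was found for 4. DESeq2 called 3 higher and 0 lower, and the median log2 difference was 0.57. With library size alone 1 was higher and 1 lower, where 3.79% and 53.0% of all genes were. On log2(TPM + 1) limma also called 1 higher and 1 lower, where 4.86% and 43.1% of all genes were. Without control replicate 3, edgeR called 1 lower. Hsp90aa1, the inducible HSP90, rose from 688 ± 224 to 2551 ± 359 CPM, a log2 difference of 1.89 ± 0.26 (SE; edgeR adjusted p = 0.000522). The kinase co-chaperone Cdc37 rose from 21.9 ± 3.48 to 45.9 ± 3.24 CPM (adjusted p = 0.00501), but with library size alone by 0.32 (adjusted p = 0.274) and on log2(TPM + 1) by 0.57 (limma adjusted p = 0.238), neither called. Hsp90ab1, the constitutive HSP90, rose from 409 ± 8.22 to 606 ± 36.2 CPM (adjusted p = 0.042), a call that held without control replicate 1 (adjusted p = 0.00942) and was lost without each of the other libraries (adjusted p = 0.0542 to 0.121). Ptges3, which encodes p23, was at 179.7 CPM in control and 229.6 CPM after EtP and did not pass. With library size alone Hsp90aa1 was higher by 1.17 (edgeR adjusted p = 0.00151) and Hsp90ab1 turned to -0.16.

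Relatives of AhR and ARNT, the PAS-domain factors of hypoxia and the clock, had 8 tested genes and edgeR called 0, though 4 had an unadjusted p below 0.05. DESeq2 called 1 higher and 1 lower, limma-voom 0, and the median was -0.37. Hif1a, the hypoxia-inducible partner of ARNT, was at 146 ± 43.1 CPM in control and 232 ± 29.3 CPM after EtP (SD, n = 3; edgeR adjusted p = 0.0635), and it passed without control replicate 1 or control replicate 3 (adjusted p = 0.0304 and 0.00889). Of these relatives 0 to 2 were called lower when 1 library was left out. Clock was at 149 ± 2.69 and 129.5 ± 4.77 CPM. Of 10 AhR coactivators 0 were higher and 1 lower, Rb1, which fell by 0.86 ± 0.25 on the log2 scale (edgeR adjusted p = 0.0247); the call held only without control replicate 1 when single libraries were left out (adjusted p = 0.0703 to 0.146 without each of the others). DESeq2 called 2 coactivators higher, as did edgeR with RLE scaling or without control replicate 1 or control replicate 3.

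Among ADP-ribosyltransferases related to TiPARP, 8 were tested, of which 0 were higher and 1 lower by edgeR (12.5% and 18.1% of all genes); 3 had an unadjusted p below 0.05, DESeq2 called 0 and the median log2 difference was -0.78. The lower one was Zc3hav1, an antiviral RNA-binding member, which fell by 1.33 ± 0.39 (edgeR adjusted p = 0.0263; lost without control replicate 2 or 3 or EtP replicate 1 or 2, adjusted p = 0.0667 to 0.114). Without control replicate 1 there were 3 lower. Parp12, the closest to Tiparp in level within this list, was at 295, 601 and 908 CPM in control and 532, 737 and 810.3 CPM after EtP (log2 difference 0.20 ± 0.35 SE; edgeR adjusted p = 0.692).

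Of 10 other ABC drug exporters 7 were tested, 1 was higher and 1 lower by edgeR, and the median was -0.43. These shares are near the 12.5% and 18.1% of all genes. Abcg2, the breast cancer resistance protein, was at 1.44, 0.846 and 0.649 CPM in control and at 2.80, 2.65 and 2.15 CPM after EtP. It rose by 1.36 ± 0.41 on the log2 scale (SE; edgeR adjusted p = 0.0296), the call held without control replicate 1 (adjusted p = 0.00569) and was lost without each of the other libraries (adjusted p = 0.0531 to 0.098), and with library size alone the value was 0.65 (adjusted p = 0.183). Abcb4, a phosphatidylcholine floppase, was at 16.3, 7.77 and 8.37 CPM in control and at 2.99, 3.87 and 3.56 CPM after EtP. It fell by 1.64 ± 0.35 (SE; edgeR adjusted p = 0.0057) and was called without each single library (adjusted p = 0.00329 to 0.0391).

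Across the whole ABC transporter family, 31 of 46 genes were tested, 2 were higher and 2 lower, and the median was -0.23, near that of all genes. Both shares were below the 12.5% higher and 18.1% lower of all genes tested. With library size alone 0 were higher and 16 lower, where 3.79% and 53.0% of all genes were. Besides Abcg2, the sterol exporter Abcg1 rose from 8.84 ± 3.16 to 22.4 ± 5.39 CPM (edgeR adjusted p = 0.00821; log2 difference 0.60 and adjusted p = 0.148 with library size alone), and Abcd2, a peroxisomal fatty acid carrier with 51 counts in control and none in EtP, was at least 10.5-fold lower against 3 counts over the group. Abcd2 also passed the filter through the control group alone. Without control replicate 1 the family had 5 lower, and without any 1 of the other libraries 1 higher. Of 82 cytochrome P450 genes of families 1 to 4, 55 had any count and 19 were tested; 0 were higher and 4 lower by edgeR, 8 had an unadjusted p below 0.05, DESeq2 called 0 and 2, and the median was -0.62. The share called lower was near the 18.1% of all genes. Cyp2f2, Cyp4v3 and Cyp4a14 fell from 10.3 to 3.59, from 8.53 to 4.65 and from 4.06 to 1.70 CPM (edgeR adjusted p = 0.00229, 0.0364 and 0.0394), and Cyp4f40 from 1.04 to 0.069 CPM (edgeR adjusted p = 0.00329). Cyp4f40 passed the filter through the control group alone, so it was selected where it was high. The calls of Cyp4v3 and Cyp4a14 were each lost without 5 of the 6 libraries (adjusted p = 0.0514 to 0.161), and held without control replicate 1 and control replicate 3 respectively. Leaving out control replicate 2, or either of EtP replicates 1 and 2, gave 2 lower P450 genes.

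**Figure D5:**
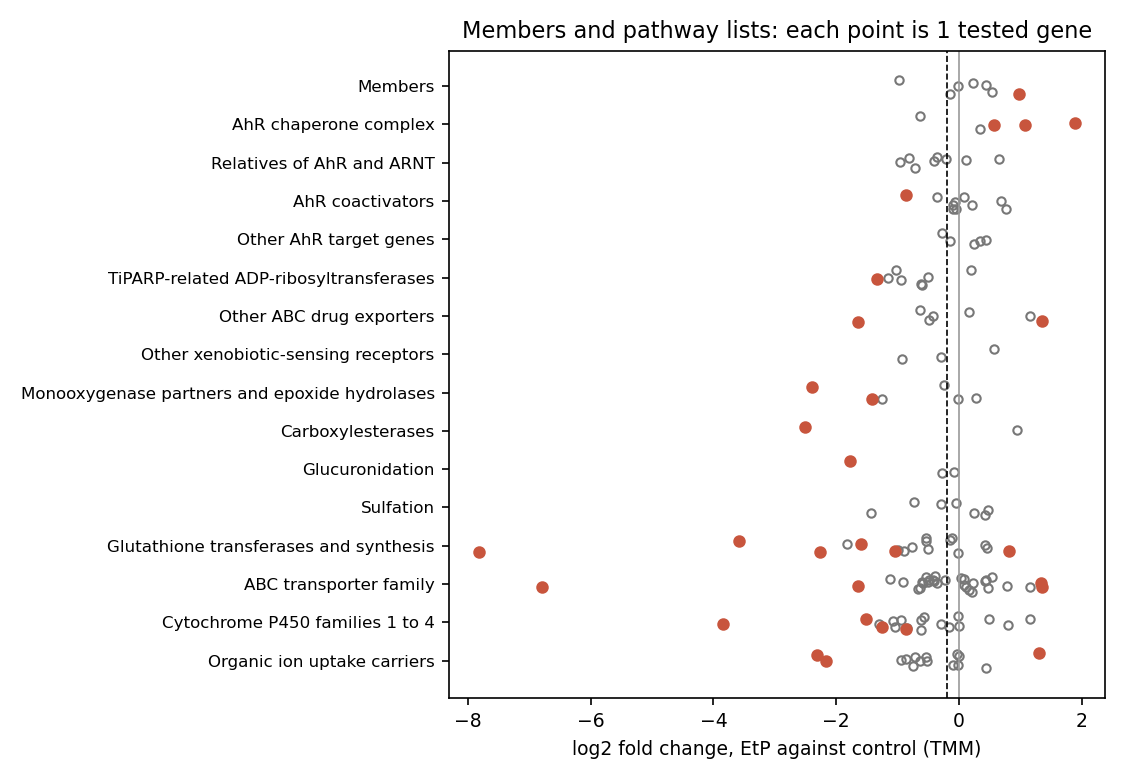
Log2 fold change with TMM, EtP against control (horizontal axis), of each tested gene of the 9 and of 15 pathway lists; filled points passed edgeR at an adjusted p below 0.05, the dashed line is the median of all genes, -0.19. Tiparp is the 1 filled point of the first row, and each list holds a mix of filled and open points or open points alone.

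Genes whose levels ran most like each member over the 6 libraries were named by the highest Pearson correlation of log2 CPM, as a description. These points share libraries and depth, and each was the highest among 14373 genes. For Tiparp they were Rnf185 (r = 0.998) and the oocyte kinase Wee2 (r = 0.998), which was at 518 to 709 CPM in control and 982 to 1245 CPM after EtP. Abcc4 ran with Abhd16a and Tbc1d14, Abcc1 with Ckap5 and Slc31a2, and Abcb1a with Cd59a and Ptgr1. Ahr ran with Taok2 and Pxk and Arnt with Tnfaip1 and Map3k20, each lowest in control replicate 1.

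Markers of the stage and of other cells are given beside the low genes. All 8 markers of the transient 2-cell programme were called lower in EtP by edgeR, with a median log2 difference of -4.97. Over all genes tested 18.1% were called lower and 12.5% higher, with a median of -0.19. Zfp352 and Zscan4d fell by 8.50 ± 0.36 and 3.33 ± 0.23. Some of the 8, Zfp352 among them, passed the filter through the control group alone, so they were selected where they were high. At least 1 count was found for 25861 to 26004 genes in control and 19244 to 19613 genes in EtP. Of 13 cumulus and granulosa markers, whose cells surround the egg, 10 had any count, with summed levels of 17.9 to 40.9 CPM in control and 17.4 to 19.6 CPM after EtP; Amh, Inhbb and Ptx3 were at 0 in all libraries, and most of the sum was Cyp19a1, at 22.2 ± 11.7 and 17.1 ± 1.42 CPM. Fshr was lower, at 1.64 ± 0.471 and 0.524 ± 0.28 CPM (edgeR adjusted p = 0.0345; called without control replicate 1 and lost without each other library), as was Tnfaip6, with 53 counts in control and none in EtP. Of 8 sperm markers 6 had any count, summing to 5.84 to 12.9 and 2.90 to 3.65 CPM, Tnp1 and Smcp were at 0 in all libraries, and Prm2 was lower, at 7.44 ± 3.16 and 2.71 ± 0.243 CPM (edgeR adjusted p = 0.0111; 0.0601 without EtP replicate 1). Of 10 blood and stromal markers 7 had any count, at 19.4 to 28.8 and 18.2 to 22.4 CPM, mostly Pecam1 at 18.0 ± 4.64 and 19.0 ± 2.38 CPM; Hbb-bs, Hbb-bt and Col3a1 were at 0 in all libraries. Of 4 tested 3 were lower: Epcam, at 2.57 ± 1.04 and 0.801 ± 0.559 CPM (edgeR adjusted p = 0.0342; lost without either of EtP replicates 1 and 3 or control replicate 1), and the globins Hba-a1 and Hba-a2, with 88 and 32 counts in control and none in EtP. Of 10 blastocyst lineage markers, all with some counts, summed levels were 44.1 to 49.6 and 55.2 to 62.8 CPM, with Gata3 at 20.3 ± 5.04 and 27.2 ± 3.57 CPM and Nanog higher, at 10.3 ± 3.07 and 22.5 ± 6.87 CPM (edgeR adjusted p = 0.0205; lost without either of EtP replicates 1 and 2 or control replicate 2, and at 0.40 with adjusted p = 0.259 with library size alone); Krt18 was lower, at 1.78 and 0.0368 CPM. Fshr, Tnfaip6, Hba-a1, Hba-a2 and Krt18 passed the filter through the control group alone, so they were selected where they were high. Epcam also passed it through the control group, as not every EtP library reached the filter level. The part of these markers in the counts of Ahrr, Cyp1a1 and Cyp1b1, which like these markers were low, was not tested.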

How the data were processed

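Smart-seq2 cDNA, primed with oligo-dT and amplified by PCR, was read from both ends, per the labels' protocols; this method does not mark strand. Per the submitters' processing notes, cutadapt 1.16 and STAR on mm10 were used. For the counting program and the STAR version the sources used here give nothing. Expected counts were deposited as the authors' estimates for each gene; 10.62% to 16.02% of rows were not whole (tolerance 0.005), and values were rounded before testing. The deposited TPM is scaled by the authors for length and library.

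EtP was compared with control (3 libraries each) in edgeR 4.0.16 (R 4.3.3) with filterByExpr, TMM and robust quasi-likelihood fits with no covariate; p-values were adjusted by Benjamini-Hochberg over 14373 genes. The SE of a log2 difference is its size over the root of F. The step was tested on simulated data, where 5.79% of calls were unchanged genes. TPM was compared by exact permutation and limma 3.58.1. Tried beside these were scaling by RLE, upper quartile or library size, other filters, DESeq2 1.42.0, limma-voom, log2(TPM + 1) and log2(TPM + 0.1), a threshold of 0.01, a replicate block and leaving out each library.

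Members and lists were chosen with earlier results of these data known. Named genes were, per list, up to 4 called genes with a mean of at least 1 CPM by smallest p, or the 2 most abundant where none was called and for markers, and the 2 genes most alike per member. Nqo1, Cyp1a2, Ptges3, Parp12, Abcb1b, Abcd2, Cyp4f40, Tnfaip6, Hba-a1, Hba-a2, Krt18, Gclm and Mgst1 were chosen after their values were seen. One gene of the chaperone list is not reported here. Positions and transcripts are from GENCODE M21, which uses the same assembly, and promoters from RefSeq on GRCm38.p6. Overlapping genes were annotated at Ahr, Arnt, Tiparp, Abcb1a, Abcc1 and Abcc4, whose reads cannot be told apart by strand.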

Additional observations from a re-analysis of the deposited data

How the results depend on the processing

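Results turned mainly on how libraries were scaled. With library size only 545 genes were higher and 7617 lower, with log2(TPM + 1) 698 and 6195, with log2(TPM + 0.1) 697 and 6190, and at an adjusted p of 0.01, 918 and 1403. Without 1 library the counts were 1096 to 2637 higher and 1659 to 2887 lower, the lowest without EtP replicate 1. Among the 9 genes 0 were higher with library size only and on both TPM scales, and 1 was lower on both TPM scales. Tiparp was at 0.24 with library size only and 0.29 on both TPM scales, where it was not called. Ahrr was called on log2(TPM + 1) and log2(TPM + 0.1), at -0.45 and -1.76. The exporters turned with library size only, log2(TPM + 1) and log2(TPM + 0.1): Abcb1a to -0.49, -0.15 and -0.34, Abcc1 to -0.28, -0.24 and -0.26, and Abcc4 to -0.19, -0.12 and -0.14. Ahr turned to 0.10 with RLE, 0.04 with no filter, 0.12 with DESeq2 and 0.16 with limma-voom. Without 1 library Ahr ran from -0.26 to 0.55, Arnt from -0.36 to 0.11 and Ahrr from -2.38 to -0.43, and none was called. Beyond the scaling itself the cause was not tested. With no filter Cyp1a1 and Cyp1b1 also entered the fit.

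Replicate numbers are shared by the groups, but deviations of same-numbered libraries correlated at 0.127, 0.00319 and 0.273, and not every library ran best with its own number, so they were not taken as pairs. With a replicate block 2295 genes were higher and 3022 lower, and Ahr was at 0.12.

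Of 42 counts of called genes in lists, 21 moved by more than 1.5 times with library size only (14 up, 7 down), 16 on log2(TPM + 1), 11 at an adjusted p of 0.01, 3 with RLE and 0 with limma-voom. Changes of 2-fold or less, and any change in genes with few counts such as Cyp1a1, Cyp1b1 and Ahrr, can be missed at this depth and number of libraries.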

Other observations

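Other lists cover enzymes and carriers that handle foreign compounds; over all genes 12.5% were called higher and 18.1% lower. Carboxylesterases, which hydrolyse parabens, had 10 of 19 genes with any count and 2 tested. Ces1d was at 1.74, 1.00 and 1.36 CPM in control and 3.18, 2.98 and 1.82 CPM after EtP, and did not pass (edgeR adjusted p = 0.0915; 0.0333 without control replicate 1). Ces5a, an epididymal member, was the 1 called, lower at 0.952 ± 0.289 and 0.161 ± 0.0624 CPM, and was lost without EtP replicate 1 or EtP replicate 3 (adjusted p = 0.0527 to 0.0702). It passed the filter through the control group alone, was not called by DESeq2 (adjusted p = 0.0682) and was not tested at a minimum of 1 CPM in 3 libraries. Of 3 tested glucuronidation genes 1 was lower, Ugt2b38, from 5.42 ± 1.89 to 1.61 ± 0.512 CPM (edgeR adjusted p = 0.00684). Of 7 tested sulfation genes edgeR called 0, with 1 at an unadjusted p below 0.05, and DESeq2 called 0; Papss1, which makes the sulfate donor, was at 34.6 ± 19.4 and 47.8 ± 7.14 CPM, and passed without control replicate 3 (edgeR adjusted p = 0.0123). Sult1d1 was at 6.78 ± 3.01 and 5.53 ± 0.295 CPM. Reads of Ugt, Ces and Gst genes may be split between near-identical copies.

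Glutathione transferases and synthesis genes had 18 tested, of which 1 was higher and 5 lower, with a median log2 difference of -0.65. Without control replicate 1 there were 3 higher, and none without either of EtP replicates 2 and 3 or control replicate 2. The higher one was Gclm, a subunit of the glutathione-synthesising ligase, from 13.9 to 24.6 CPM (edgeR adjusted p = 0.0226), and Mgst1 was lower, from 1.63 to 0.129 CPM (edgeR adjusted p = 0.00629). With library size alone none was called higher. Gstm1, Gsto1 and Mgst1 passed the filter through the control group alone, so they were selected where they were high. Gstm5 fell from 64.0 ± 27.2 to 21.1 ± 3.17 CPM and Gsto1 from 1.70 ± 0.458 to 0.340 ± 0.152 CPM (edgeR adjusted p = 0.00363 and 0.00682), both called without each single library. Gstm1 had 103 counts in control and none in EtP, at least 21.2-fold lower against 3 counts over the group. Mgst3 fell from 336 ± 138 to 163 ± 19.0 CPM (adjusted p = 0.0196), a call lost without control replicate 2 or any 1 EtP library (adjusted p = 0.0598 to 0.0922). Of 6 tested monooxygenase partners and epoxide hydrolases 0 were higher and 2 lower by edgeR, and DESeq2 called 0 and 2. Cyb5a, cytochrome b5, was at 127, 75.8 and 62.7 CPM in control and 17.5, 16.7 and 16.1 CPM after EtP, and Cyb5r3, a reductase of cytochrome b5, fell from 36.7 ± 2.68 to 13.8 ± 1.43 CPM; both were called without each single library. Uptake carriers for organic ions had 15 tested, 1 higher and 2 lower: Slco1a5 fell from 63.5 ± 30.0 to 12.8 ± 1.37 CPM and Slc22a28 from 4.37 ± 0.496 to 0.961 ± 0.263 CPM, while Slc22a17 rose from 1.45 ± 0.661 to 3.62 ± 0.342 CPM, a call held without control replicate 1 only (adjusted p = 0.0571 to 0.0871 without each of the others; 0.60 and adjusted p = 0.201 with library size alone). Of other xenobiotic-sensing receptors 3 of 8 were tested and edgeR called 0, none at an unadjusted p below 0.05 and none by DESeq2; Ppara was at 3.92 ± 2.50 and 5.80 ± 1.52 CPM and Rxra at 2.21 ± 1.43 and 1.14 ± 0.621 CPM.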
